A study of Mus musculus with 10 samples.

Results

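The cytochrome P450 enzymes of families 1 to 3 were followed in the liver of mice with or without Pml, fed or fasted. Members were all genes whose platform symbol is Cyp followed by 1, 2 or 3 and a letter, without pseudogenes. The rule found 58 genes among the 22180 that a single-symbol probe set represents, and 45 of them passed the filter on dim probe sets that left 13942 genes. That filter asked for a level above the median of the array on at least 2 of the 10 arrays. It removed Cyp2ab1, Cyp2b19, Cyp2b23, Cyp2c65, Cyp2d11, Cyp2d12, Cyp2d34, Cyp2j8, Cyp2j11, Cyp2j12, Cyp2s1, Cyp2t4 and Cyp3a57, each of which lay at or below the median on all 10 arrays.

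All samples came from liver of female BALB/cByJ mice aged 3 months, hybridised to Affymetrix Mouse Gene 2.1 ST arrays, which read each transcript through probes in its exons. Pml encodes the scaffold protein of PML nuclear bodies. The 4 groups were Pml wt mice with food ad libitum (2 samples), Pml KO mice with food ad libitum (2), Pml wt mice without food for 6 h (3) and Pml KO mice without food for 6 h (3), called here fed or fasted wild type and fed or fasted knockout. The sources used here do not give the knockout allele, the origin of the wild type mice or the time of collection. Water was free and all mice were kept under a light and dark cycle in a pathogen-free facility. The labels attach the note on food removal to the fed samples too, so feeding was taken from the titles.

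P450 enzymes of families 1 to 3 are haem proteins of the endoplasmic reticulum that oxidise drugs, pollutants, steroids and fatty acids, with electrons passed on by a reductase and cytochrome b5. The liver holds most of them, many in the pericentral zone around the central vein, and adjusts them through 3 sensors: the aryl hydrocarbon receptor (AhR, gene Ahr) for family 1, CAR (Nr1i3) for Cyp2b genes and PXR (Nr1i2) for Cyp3a genes. In rodents many members also differ between the sexes under the control of growth hormone pulses. A few have endogenous substrates, such as vitamin D for Cyp2r1.

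The promoter windows of 6 members are shown because these genes carry the results below: Cyp2b10, which changed in all 5 comparisons, beside Cyp2b9 and Cyp2b13, relatives from the same cluster that passed the test in none of them; Cyp2r1, whose fall with fasting in wild type held under the omission of any array; and Cyp3a16 and Cyp3a44, which varied widely between samples of one group. Each window holds the 250 bases before the annotated start, from RefSeq on GRCm38.p6, written 5′ to 3′ on the strand of the gene. The Cyp2b windows lie at chr7:25897408-25897657 (plus strand, Cyp2b10), chr7:26173159-26173408 (plus, Cyp2b9) and chr7:26061245-26061494 (plus, Cyp2b13); capitals mark a C/EBP-type element in Cyp2b10 and the bases aligned with it in the other genes.
Cyp2b10: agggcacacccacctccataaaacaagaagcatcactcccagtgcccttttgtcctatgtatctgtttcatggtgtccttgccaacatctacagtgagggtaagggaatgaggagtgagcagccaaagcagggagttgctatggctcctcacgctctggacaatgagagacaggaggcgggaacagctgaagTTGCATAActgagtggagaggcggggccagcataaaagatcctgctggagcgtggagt
Cyp2b9: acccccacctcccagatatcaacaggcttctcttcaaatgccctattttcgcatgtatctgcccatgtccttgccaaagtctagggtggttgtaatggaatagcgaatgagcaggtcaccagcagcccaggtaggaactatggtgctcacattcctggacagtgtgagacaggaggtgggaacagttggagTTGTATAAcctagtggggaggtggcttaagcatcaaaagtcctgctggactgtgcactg
Cyp2b13: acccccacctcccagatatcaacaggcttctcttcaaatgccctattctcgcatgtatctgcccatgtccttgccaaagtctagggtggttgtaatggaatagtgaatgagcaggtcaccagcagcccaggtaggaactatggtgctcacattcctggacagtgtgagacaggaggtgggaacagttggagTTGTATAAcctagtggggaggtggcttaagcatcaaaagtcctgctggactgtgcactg
The windows of Cyp2b9 and Cyp2b13 were identical at 99.2% of aligned positions, and each was identical to that of Cyp2b10 at 70%. Within the capitals both differ from Cyp2b10 by C4T, counted from 1 at the 5′ end of the element, which lies 58 to 51 bases before the start of Cyp2b10 and 59 to 52 bases before the others. The exact letters TTGCATAA, searched on both strands, stood in 0.694% of all 32841 windows and in 9.43% of the 53 member windows, namely those of Cyp2a4, Cyp2a5, Cyp2b10, Cyp2b19 and Cyp2b23. Of these, Cyp2a4 and Cyp2a5 did not pass the test with fasting in wild type (log2 differences 0.12 and 0.45), and Cyp2b19 and Cyp2b23 fell below the filter. Whether the element bears on the response was not tested. The enhancer through which CAR acts on Cyp2b10 is known to lie further upstream, outside the window.

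The Cyp2r1 window lies at chr7:114562973-114563222 (minus strand), with CCAAT boxes in capitals, and those of Cyp3a16 and Cyp3a44 at chr5:145469724-145469973 and chr5:145805875-145806124 (both minus), with an HNF4-type element or the bases aligned with it in capitals.
Cyp2r1: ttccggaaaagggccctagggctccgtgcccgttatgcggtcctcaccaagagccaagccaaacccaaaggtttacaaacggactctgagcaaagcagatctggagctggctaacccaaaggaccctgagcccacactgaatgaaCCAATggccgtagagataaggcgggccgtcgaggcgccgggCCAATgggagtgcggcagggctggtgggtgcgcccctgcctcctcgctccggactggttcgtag
Cyp3a16: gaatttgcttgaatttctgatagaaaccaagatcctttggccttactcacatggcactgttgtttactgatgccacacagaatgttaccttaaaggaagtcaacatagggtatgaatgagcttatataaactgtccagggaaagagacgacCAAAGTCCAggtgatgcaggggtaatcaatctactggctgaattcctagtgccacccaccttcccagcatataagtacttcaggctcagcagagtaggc
Cyp3a44: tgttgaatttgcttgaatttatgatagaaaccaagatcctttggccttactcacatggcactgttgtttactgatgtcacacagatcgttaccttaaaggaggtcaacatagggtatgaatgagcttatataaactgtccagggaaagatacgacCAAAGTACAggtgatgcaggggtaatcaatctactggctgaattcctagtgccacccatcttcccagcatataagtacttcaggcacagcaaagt
The Cyp2r1 window had a GC content of 61.6%, against a median of 47.2% over member windows and 52.4% over all windows. CCAAT on either strand stood in 33.9% of all windows and 37.7% of member windows. The Cyp3a windows were identical at 92.9% of aligned positions, and the element of Cyp3a16 (CAAAGTCCA, 99 to 91 bases before the start) differs in Cyp3a44 by C7A. CAAAGTCCA stood in 0.384% of all windows and in 13.2% of member windows, among them Cyp3a11, Cyp2c69 and Cyp2c70. Other letters that were searched stood in member windows against all windows as follows. TATAAA, the TATA box, was in 41.5% against 12.4%, and AGGTCA, the nuclear receptor hexamer, in 30.2% against 14%. The forkhead letters TGTTTAC were in 15.1% against 3.17%. GCGTG, the core bound by AhR, was in 18.9% against 28.2%, and TTATGTAA, the D-box read by DBP, in 0% against 0.819%. These motifs were chosen after the values and windows were seen. They are matches of letters, and a D-box is only missing from these 250 bases. Windows of related members can be near copies, such as those of Cyp2a4 and Cyp2a5, identical at 97.6% of aligned positions. The member shares therefore do not count independent promoters, and they were not tested against all windows.

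Facts on the arrays as a whole are these. Array medians lay between 43.5 and 47.5 on the linear intensity scale. Pml, the targeted gene, had log2 intensities of 8.37 and 8.22 in the fed wild type, 6.91 and 6.41 in the fed knockout, 7.72, 7.50 and 8.13 in fasted wild type, as opposed to 6.05, 6.35 and 6.14 in fasted knockout, so every knockout array lay below every wild type array. Fasted knockout replicates 1 and 2 stood apart from replicate 3 by clock genes: Arntl, which encodes BMAL1, was 4.60, 4.53 and 8.87 there, against 9.04 to 9.29 in fasted wild type, 7.10 and 7.50 in the fed wild type and 5.72 and 6.02 in the fed knockout. The clock output gene Dbp was 10.05, 9.80 and 6.00 on those fasted knockout arrays, against 6.07 to 6.64 in fasted wild type and 9.50 to 10.02 over the fed arrays. Of 14 measured clock genes, 5 (35.7%, against 21.4% of all genes) changed with fasting in wild type. Cry1, Per1 and Npas2 rose by 2.86, 0.98 and 3.70 (limma adjusted p = 0.00124, 0.00387 and 0.0476), and Nr1d1 and Dbp fell by 3.12 and 3.11 (0.00132 and 0.0455). Between the fasted genotypes Cry1 and Clock were lower in knockout (-2.17 and -1.16) and Nr1d1 higher (1.48), at limma adjusted p = 0.00817, 0.0349 and 0.0341. That was 21.4% of the clock genes, against 11.1% of all genes. With replicate 3 as the sole fasted knockout array these differences of Cry1, Clock and Nr1d1 were -1.40, -0.35 and 0.49, and none passed the test. The calls of Dbp and Npas2 were lost in 7 and 8 of 10 omissions of an array, and those of Clock and Nr1d1 between the fasted genotypes in 7 each. All 5 hepatocyte markers were measured, with a summed intensity of 27570 to 30050 over the 10 arrays, while all 3 B cell and all 3 neutrophil markers fell below the filter. The 10 pericentral hepatocyte markers summed to 11703 to 13908 in fasted wild type and to 13973 to 16524 in the other groups. The 7 macrophage markers summed to 2736 to 2941 in fasted wild type, 3278 to 3639 in fasted knockout and 2975 to 3554 over the fed arrays. In whole liver, fewer cells of a type and less RNA per cell cannot be told apart.

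Several members with high signal passed no test. Cyp2e1, the ethanol-inducible pericentral enzyme, had a mean log2 intensity of 12.74 ± 0.02 (SD, n = 2) in fed wild type, 12.77 ± 0.02 (n = 2) in fed knockout, 12.81 ± 0.05 (n = 3) in fasted wild type and 12.83 ± 0.02 (n = 3) in fasted knockout. Its difference with fasting in wild type was 0.07 on the log2 scale, with a 95% interval of -0.13 to 0.27. Such intervals were -0.39 to 0.06 for Cyp1a2, the caffeine-oxidising enzyme, -0.25 to 0.34 for Cyp3a11, the main drug-oxidising Cyp3a enzyme of mouse liver, -0.21 to 0.24 for Cyp2c29 and -0.29 to 0.12 for the arachidonic acid epoxygenase Cyp2j5. Of the 45 members kept, 17 passed the test in at least 1 of the 5 comparisons and 28 passed it in none. The same count was not made over all genes. The share of all genes that changed is given below with each comparison. A member is said to have changed, risen or fallen where limma gave a Benjamini-Hochberg adjusted p under 0.05 over all 13942 genes, and on all such members the arrays of the groups compared did not overlap.

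With fasting in wild type mice 5 of the 45 members rose and 8 fell, against 21.4% of all genes that changed (8.23% rose and 13.2% fell). The risers were Cyp2b10, Cyp3a44, Cyp1b1, Cyp2c66 and Cyp3a13, and the members that fell were Cyp2g1, Cyp2r1, Cyp2u1, Cyp3a59, Cyp2c23, Cyp2d13, Cyp2c68 and Cyp2c70. The median difference over the members was -0.10 on the log2 scale and -0.02 over all genes, and the arrays of 23 members (51.1%) did not overlap, against 52.7% of all genes. The summed intensity of the pericentral markers was lower on these fasted arrays, as given above. Of the 10 markers 5 had positive and 5 negative differences, with a median of -0.06, and 2 were called, both lower. The Dbp and Arntl levels of fed and fasted wild type did not overlap. The part of these marker and clock genes in the changes was not tested. Without fed wild type replicate 1 the count of changed members was 4, without fed wild type replicate 2 it was 7, and with the replicate number as a block it was 8.

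**Figure D1:**
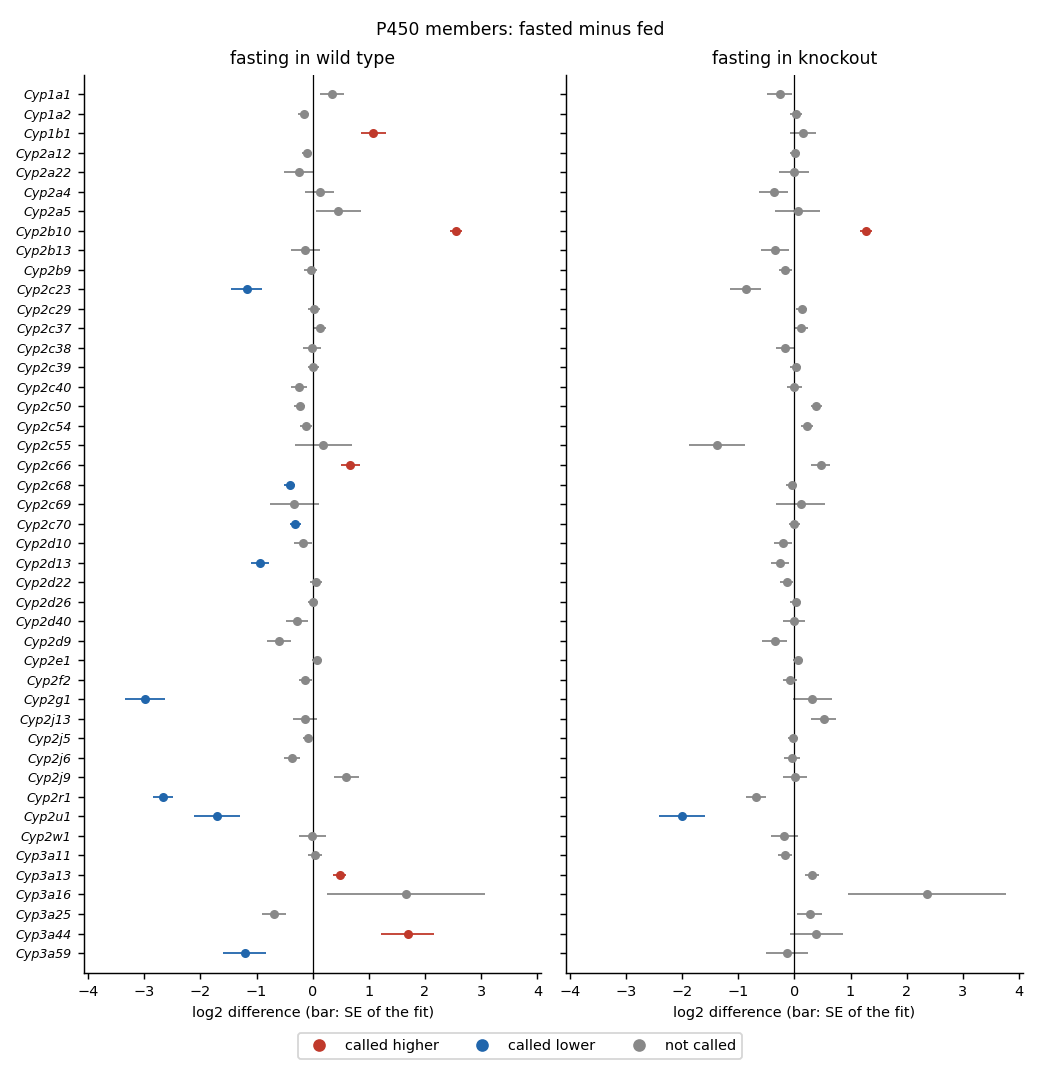
Difference in log2 intensity between fasted and fed arrays for the 45 P450 members, in wild type (left) and knockout (right). Points are fitted differences, bars their standard errors, red and blue mark members called higher and lower by limma. In wild type 13 members are coloured, and in knockout Cyp2b10 and Cyp2u1.

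Cyp2b10, which hydroxylates barbiturates and many drugs and is the classical target of CAR, had the largest rise. Its log2 intensity was 9.51 and 9.54 in fed wild type and 11.93, 12.12 and 12.17 in fasted wild type. Both fed arrays lay far below the 3 fasted ones. The rise was 5.86-fold (log2 2.55, SE 0.11, limma adjusted p = 9.95e-06), and it passed the test under every omission of an array. Cyp2b9 and Cyp2b13, female-biased enzymes of the same cluster, had differences of -0.04 (95% interval -0.30 to 0.23) and -0.13 (-0.69 to 0.42). Cyp2b9 was 12.51 and 12.45 in fed wild type and 12.49, 12.27 and 12.57 in fasted wild type, so the groups overlapped. Among the CAR and PXR responsive members, 2 of the 13 measured (Cyp2b10 and Cyp3a13) rose and none fell, with a median of 0.04. These were 15.4% of the list, against 21.4% of all genes that changed.

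Cyp1b1, an AhR-responsive enzyme that hydroxylates oestradiol and polycyclic hydrocarbons, was dim. It was at or below the array median in fed wild type (4.42 and 5.20) and above it on all 3 fasted arrays (5.79, 5.95 and 5.92). Taken against the medians of the fed arrays, it was at least 1.32-fold higher after fasting (measured log2 difference 1.08, SE 0.23, limma adjusted p = 0.0107). Without fed wild type replicate 1 the difference was 0.69 (adjusted p = 0.0887). The other AhR-responsive members did not pass the test: Cyp1a1 differed by 0.34 (95% interval -0.15 to 0.84) and Cyp1a2 as given above.

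Cyp3a44, a female-biased Cyp3a enzyme, was 8.59 and 10.28 in fed wild type and 11.16, 10.89 and 11.31 in fasted wild type. The fed arrays differed from each other by more than the fasted ones, but both lay below them. The rise was 3.22-fold (log2 1.69, SE 0.47, limma adjusted p = 0.0310). Without fed wild type replicate 1 it was 0.84 (adjusted p = 0.249), without fed wild type replicate 2 it was 2.53, and the call was also lost without any 1 of the fasted wild type arrays (adjusted p up to 0.0832). Cyp3a44 was 1 of the 7 measured female-biased members (14.3%, against 21.4% of all genes that changed). None of the other members of that list passed the test. Cyp3a13 was 9.64 and 9.59 in fed and 10.23, 10.07 and 10.00 in fasted wild type (rise of 1.40-fold, adjusted p = 0.0192). Cyp2c66, a dim gene, was 5.71 and 5.52 against 5.99, 6.37 and 6.49 (rise of 1.59-fold, adjusted p = 0.0188). Both calls were lost without either fed wild type array, Cyp3a13 also without fasted wild type replicate 1 and Cyp2c66 without fasted wild type replicate 2 or 3 (adjusted p 0.0556 to 0.0903 and 0.057 to 0.108).

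The steepest falls were those of Cyp2g1 and Cyp2r1. Cyp2g1, first known from olfactory mucosa, was 8.75 and 8.33 in fed wild type and 5.42, 5.36 and 5.86 in fasted wild type, where 1 of the 3 arrays was above the array median. It fell 7.95-fold (log2 -2.99, SE 0.35, limma adjusted p = 0.000779). Cyp2r1, the vitamin D 25-hydroxylase, was 8.79 and 8.58 in fed and 6.37, 5.84 and 5.83 in fasted wild type. Its fall was 6.37-fold (log2 -2.67, SE 0.18, limma adjusted p = 0.000170). Cyp2d13 was 11.40 and 11.21 in fed and 10.08, 10.40 and 10.61 in fasted wild type, a fall of 1.92-fold (SE 0.16 on the log2 scale, adjusted p = 0.00399). The calls of Cyp2g1, Cyp2r1 and Cyp2d13 held under each omission of an array.

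Cyp2u1, which oxidises long-chain fatty acids at the end of the chain, was 7.77 and 7.70 in fed and 6.03, 5.59 and 6.47 in fasted wild type. It fell 3.26-fold (log2 -1.71, SE 0.41, limma adjusted p = 0.0178), a call lost without either fed wild type array or fasted wild type replicate 2 (up to 0.0957) and with the replicate number as a block (0.054). Cyp2c23, the arachidonic acid epoxygenase also named Cyp2c44, was 9.88 and 9.53 in fed and 8.70, 8.64 and 8.23 in fasted wild type. It fell 2.27-fold (log2 -1.18, SE 0.27, adjusted p = 0.0145; 0.11 without fed wild type replicate 1). Of the 6 measured members listed for fatty acid epoxidation and vitamin D, Cyp2r1 and Cyp2u1 fell and none rose (33.3%, against 21.4% of all genes that changed). The median was -0.25. Cyp2c23 was listed under its other name and is not among the 6. Cyp2j9 of that list was higher by 0.60 and did not pass the test.

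Cyp3a59 was 9.24 and 8.80 in fed and 6.96, 7.84 and 8.62 in fasted wild type, with the 3 fasted arrays far apart from each other. It fell 2.32-fold (log2 -1.21, SE 0.38, limma adjusted p = 0.0476). The call held in 1 of 10 omissions of an array, that of fasted wild type replicate 3 (-1.62, adjusted p = 0.00793), and without fasted wild type replicate 1 the difference was -0.79. Cyp2c70, which makes muricholic acids from bile acids, was 12.26 and 12.29 in fed and 12.04, 11.91 and 11.93 in fasted wild type. This fall of 1.24-fold (adjusted p = 0.0443) was lost in 9 of 10 omissions (0.05 to 0.157). Cyp2c68 was 11.07 and 11.09 against 10.68, 10.72 and 10.60, a fall of 1.33-fold (adjusted p = 0.0205), lost without either fed wild type array or fasted wild type replicate 3 (0.0646 to 0.0983).

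With fasting in knockout mice 1 of the 45 members rose and 1 fell, against 1.68% of all genes (0.811% rose and 0.868% fell). The median difference was 0.00 over the members and 0.01 over all genes. The arrays of 16 members (35.6%) did not overlap, against 36.8% of all genes. Without fed knockout replicate 2 no member passed the test in limma, with 6 at an unadjusted p under 0.05. Without any 1 of the fed wild type arrays, the fasted wild type arrays, or fasted knockout replicates 2 and 3, the count was 1.

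Cyp2b10 was 10.44 and 10.39 in fed knockout and 11.67, 11.77 and 11.62 in fasted knockout. The rise was 2.41-fold (log2 1.27, SE 0.11, limma adjusted p = 0.0066; 0.0753 without fed knockout replicate 2). On fasted knockout replicate 3, the array with a wild-type-like Arntl level, it was close to the others, and without replicates 1 and 2 the rise was 1.20. Cyp2u1 was 7.23 and 8.48 in fed and 6.49, 5.77 and 5.29 in fasted knockout, where 2 of 3 arrays were above the array median. Its fall was 4.01-fold (log2 -2.01, SE 0.41, limma adjusted p = 0.0483), and it held in 1 of 10 omissions of an array, that of fasted knockout replicate 1 (adjusted p 0.0602 to 0.293 in the others).

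The other members that had changed in wild type passed no test in knockout and gave these values. Cyp2g1 was 8.47 and 7.99 in fed and 8.91, 8.99 and 7.73 in fasted knockout, with overlapping groups (0.32, 95% interval -0.47 to 1.11); replicate 3, the fasted array with a wild-type-like Arntl level, lay below both fed arrays. Cyp2r1 was 7.99 and 8.13 in fed and 7.59, 7.27 and 7.27 in fasted knockout, without overlap (-0.69, SE 0.18, limma adjusted p = 0.0866). Cyp2d13 differed by -0.25 (-0.61 to 0.11), Cyp2c23 by -0.87 (-1.48 to -0.26), Cyp3a59 by -0.13 (-0.98 to 0.72) and Cyp1b1 by 0.16 (-0.36 to 0.68). Cyp2c66 differed by 0.47 (0.10 to 0.85) and Cyp3a13 by 0.31 (0.04 to 0.58), without overlap and in the same direction as in wild type. The differences were 0.39 for Cyp3a44 (-0.67 to 1.45), -0.05 for Cyp2c68 (-0.28 to 0.18) and 0.00 for Cyp2c70 (-0.22 to 0.21). Outside these members Cyp2c55, a CAR and PXR responsive epoxygenase, gave -1.38 in knockout (0.19 in wild type), which rests on fed knockout replicate 2 at 9.13, while its other 9 arrays lay between 6.40 and 6.83.

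**Figure D2:**
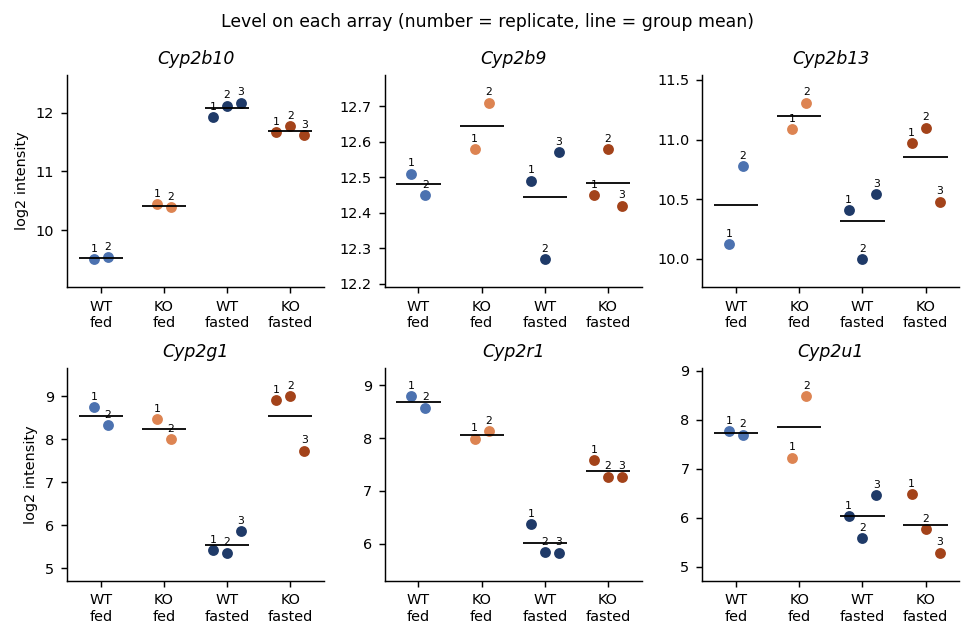
Log2 intensity of Cyp2b10, Cyp2b9, Cyp2b13, Cyp2g1, Cyp2r1 and Cyp2u1 on each of the 10 arrays, by group; numbers are replicates and lines group means. Cyp2b10 rises with fasting in both genotypes from a higher fed level in knockout, Cyp2g1 is low in fasted wild type alone (5.36 to 5.86), and Cyp2b9 stays between 12.27 and 12.71.

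The fasting responses of the genotypes were compared by the interaction term, which is the fasting difference in knockout minus that in wild type. It passed the test for 3 of 45 members, 2 with a positive and 1 with a negative term, against 2.11% of all genes (1.32% positive and 0.789% negative). The fasting differences of 11 members (24.4%) did not overlap between the genotypes, against 22.4% of all genes. The term was -1.28 for Cyp2b10 (SE 0.15, limma adjusted p = 0.0188): the rise was smaller in knockout. It was 3.31 for Cyp2g1 (SE 0.50, adjusted p = 0.0264) and 1.99 for Cyp2r1 (SE 0.26, adjusted p = 0.0221), whose differences with fasting were -2.99 and -2.67 in wild type and 0.32 and -0.69 in knockout. Cyp2c50 followed with 0.62 (SE 0.14, adjusted p = 0.0579), and the term of Cyp2u1 was -0.30 (95% interval -1.61 to 1.01). The calls of Cyp2b10 and Cyp2r1 were lost without either fed knockout array (adjusted p up to 0.0809), and that of Cyp2g1 without fed wild type replicate 1, either fed knockout array, fasted wild type replicate 1, fasted wild type replicate 2, or fasted knockout replicate 1 (up to 0.0904). Without fasted knockout replicates 1 and 2, which stood apart by clock genes, the terms were -1.35, 2.49 and 1.88 (adjusted p 0.065, 0.065 and 0.0718).

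Under ad libitum feeding 1 of 45 members, Cyp2b10, differed between the genotypes, against 0.0861% of all genes (0.0574% higher and 0.0287% lower in knockout). Both fed knockout arrays (10.44 and 10.39) lay above both fed wild type arrays (9.51 and 9.54). Cyp2b10 was 1.86-fold higher in knockout (log2 0.89, SE 0.12, limma adjusted p = 0.0398), with a within-group spread at the 10.7th percentile of all genes. The call held in 1 of 10 omissions of an array, that of fasted knockout replicate 3, and the adjusted p was 0.0706 to 0.245 in the others, with the log2 difference between 0.87 and 0.92. The arrays of 24 members (53.3%) did not overlap between the fed groups, against 39.9% of all genes, and the medians were 0.06 and -0.02.

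Other members gave smaller or less certain differences than Cyp2b10 in the fed state. Cyp2b13 was 10.12 and 10.78 in the fed wild type and 11.09 and 11.31 in the fed knockout (0.75, 95% interval 0.14 to 1.36, adjusted p = 0.443), and Cyp2b9 differed by 0.16 (-0.13 to 0.46). Cyp1a1, the AhR marker enzyme, was 6.09 and 6.78 against 7.07 and 7.05 (0.63, 0.09 to 1.17, adjusted p = 0.487). Cyp2c55 and Cyp3a44 differed by 1.41 and 1.10, with intervals of 0.18 to 2.64 and -0.06 to 2.26. The Cyp2c55 difference rests on fed knockout replicate 2 at 9.13, against 6.82 on replicate 1 and 6.41 and 6.72 in fed wild type. None of these members passed the test between the fed genotypes.

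**Figure D3:**
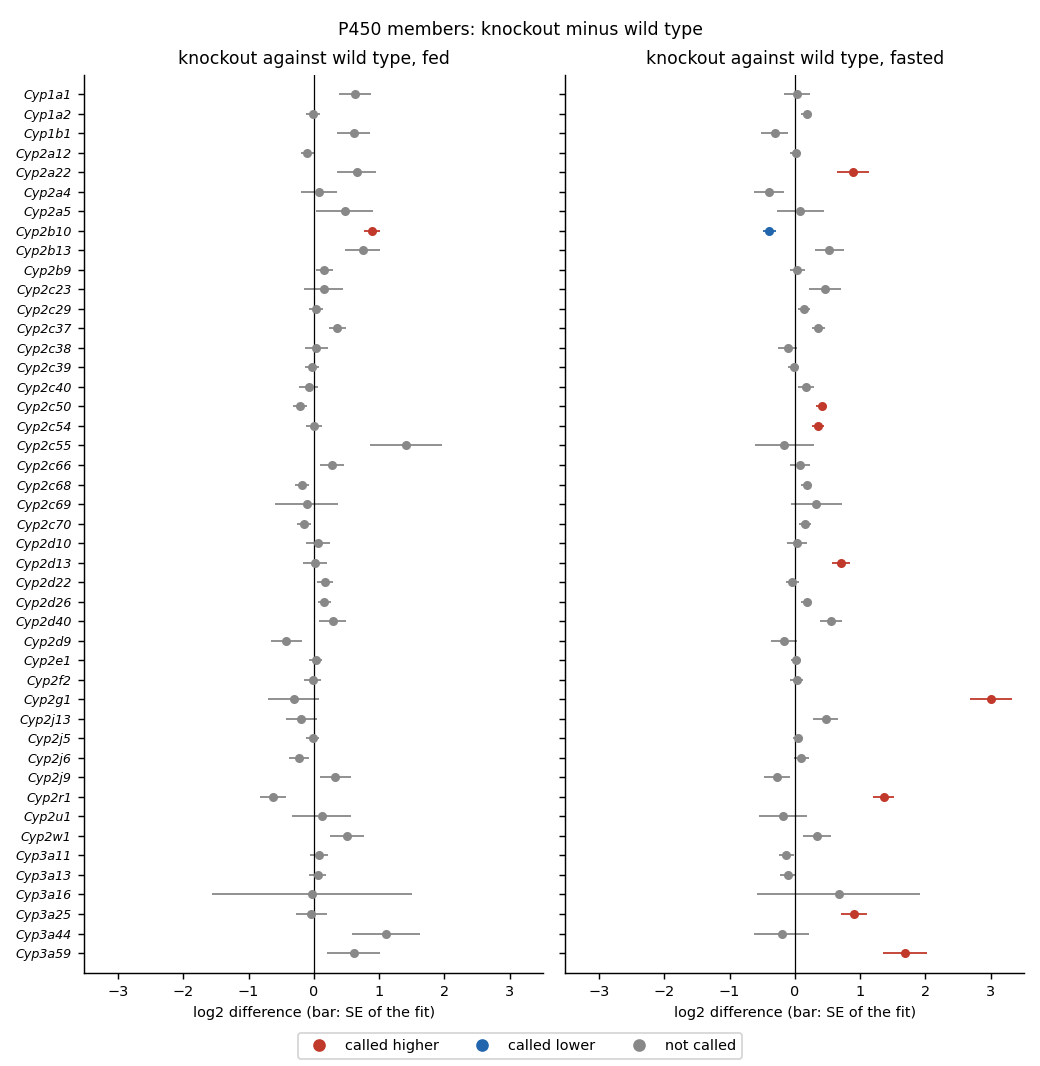
Difference in log2 intensity between knockout and wild type for the 45 P450 members, in fed (left) and fasted (right) mice. Points are fitted differences and bars their standard errors; Cyp2b10 alone is coloured in the fed state, 9 members in the fasted state.

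After 6 h without food, 8 members were higher and 1 was lower in knockout than in wild type, against 11.1% of all genes (6.68% higher and 4.43% lower). The higher ones were Cyp2g1, Cyp3a59, Cyp2r1, Cyp3a25, Cyp2a22, Cyp2d13, Cyp2c50 and Cyp2c54, and the lower one was Cyp2b10. The median was 0.10 over the members and 0.01 over all genes, and the arrays of 16 members (35.6%) did not overlap, against 33% of all genes. Macrophage and pericentral marker sums were lower in fasted wild type than in fasted knockout, and Arntl was apart on fasted knockout replicates 1 and 2; their part was not tested. Without fasted knockout replicate 1 the count was 2, without fasted wild type replicate 1 or 3 it was 5, without fasted wild type replicate 2 it was 6, and a fit of the fasted groups alone gave 4. Without fasted knockout replicates 1 and 2 no member passed the test in limma, with 9 at an unadjusted p under 0.05; 1 array then stood for its group.

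Cyp2g1 was 5.42, 5.36 and 5.86 in fasted wild type, as opposed to 8.91, 8.99 and 7.73 in fasted knockout. The lowest knockout array lay above the highest wild type array. It was 7.99-fold higher in knockout (log2 3.00, SE 0.32, limma adjusted p = 0.00422), and 2.18 on the log2 scale with replicate 3 as the sole fasted knockout array (adjusted p = 0.062). Cyp2r1 was 6.37, 5.84 and 5.83 in fasted wild type, as opposed to 7.59, 7.27 and 7.27 in fasted knockout. It was 2.57-fold higher in knockout (log2 1.36, SE 0.16, limma adjusted p = 0.00433), and 1.26 with replicate 3 alone (adjusted p = 0.078). Both calls held in all 10 omissions of a single array.

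Among the Cyp3a members, Cyp3a59 was 6.96, 7.84 and 8.62 in fasted wild type, as opposed to 9.49, 9.73 and 9.29 in fasted knockout. The wild type arrays were spread and the knockout arrays close together. It was 3.24-fold higher in knockout (log2 1.69, SE 0.34, limma adjusted p = 0.0170; 0.0613 without fasted knockout replicate 1). Cyp3a25, a liver Cyp3a enzyme, was 9.15, 9.57 and 9.48 against 10.25, 10.77 and 9.92. It was 1.88-fold higher (log2 0.91, SE 0.20, limma adjusted p = 0.0221), a call lost when fasted wild type replicate 1 or 3, or replicate 1 of fasted knockout, was left out (up to 0.0711). With replicate 3 as the sole fasted knockout array the difference of Cyp3a25 was 0.52 (adjusted p = 0.2). Cyp3a11 was 11.36, 11.69 and 11.48 against 11.46, 11.29 and 11.40, with overlapping groups (-0.13, 95% interval -0.39 to 0.13).

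Cyp2d13 was 10.08, 10.40 and 10.61 in fasted wild type, as opposed to 11.23, 11.07 and 10.93 in fasted knockout, 1.63-fold higher in knockout (log2 0.71, SE 0.14, limma adjusted p = 0.0179; 0.0733 without fasted knockout replicate 1). Cyp2c50 and Cyp2c54, epoxygenases that respond to CAR and PXR, moved by less with a tight spread. Cyp2c50 was 10.53, 10.64 and 10.55 against 10.93, 11.07 and 10.95 (1.33-fold, adjusted p = 0.0215), a call lost in 3 of 10 omissions, those of fasted wild type replicate 1, fasted wild type replicate 3 and fasted knockout replicate 1 (up to 0.0724). Cyp2c54 was 11.12, 11.23 and 11.07 against 11.61, 11.48 and 11.39 (1.27-fold, adjusted p = 0.0429), and its call held in 1 of 10 omissions, that of fasted knockout replicate 3. Cyp2c37, another epoxygenase of that cluster, was higher by 0.36 and fell just short of the threshold (adjusted p = 0.0522). Cyp2a22 was 9.03, 8.72 and 9.78 against 10.07, 10.32 and 9.80, so that the closest arrays of the groups differed by little (1.85-fold, adjusted p = 0.0459), and its call was lost in 8 of 10 omissions, all but those of fasted wild type replicate 3 and fasted knockout replicate 3.

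Cyp2b10 alone was lower in fasted knockout. It was 11.93, 12.12 and 12.17 in fasted wild type, as opposed to 11.67, 11.77 and 11.62 in fasted knockout, without overlap. The difference was 1.31-fold (log2 -0.39, SE 0.10, limma adjusted p = 0.0337), lost in 6 of 10 omissions of an array (0.0524 to 0.116): fed knockout replicate 1 or 2, fasted wild type replicate 2 or 3, and fasted knockout replicate 1 or 3. Of the 13 CAR and PXR responsive members measured, 3 were higher (Cyp2c50, Cyp2c54 and Cyp3a25) and 1 was lower in fasted knockout (30.8%, against 11.1% of all genes). None of the 3 AhR-responsive and none of the 7 female-biased members passed the test here.

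**Figure D4:**
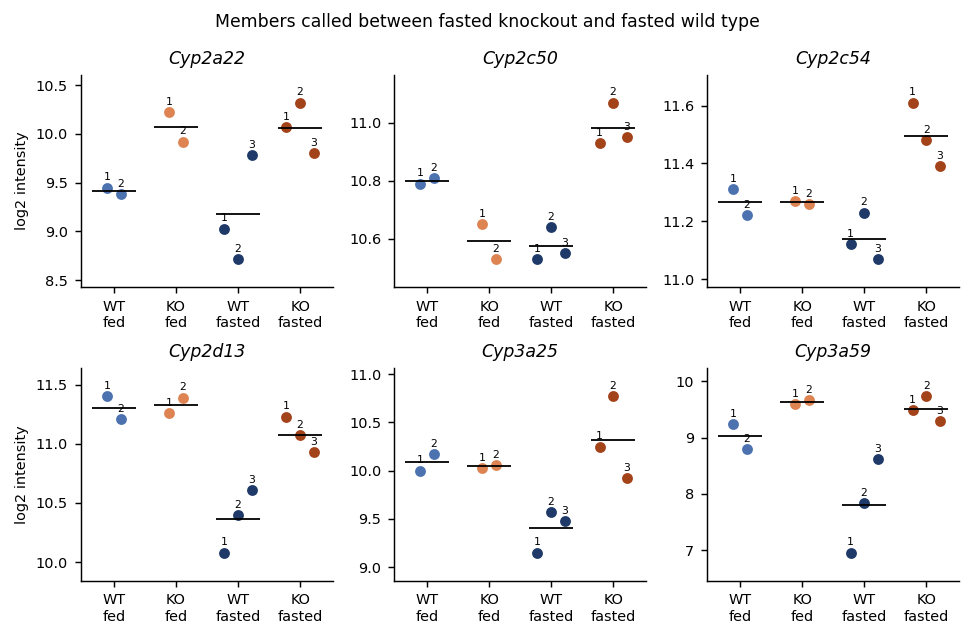
Log2 intensity on each of the 10 arrays, by group, for 6 of the members that were higher in fasted knockout than in fasted wild type; numbers are replicates and lines group means. Cyp3a59 and Cyp2d13 are lowest in fasted wild type, while Cyp2a22 is also higher in fed knockout (9.92 and 10.22) than in fed wild type (9.38 and 9.45).

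Some members varied widely between samples of one group. The pooled SD within groups had a median of 0.19 over the 45 members and 0.17 over all genes. Cyp3a16, a female-biased Cyp3a enzyme also known from fetal liver, had the widest at 1.94. It was 5.73 and 9.77 in the fed wild type, 9.72 and 5.73 in the fed knockout, 10.14, 8.06 and 10.03 in fasted wild type, as opposed to 10.19, 11.36 and 8.68 in fasted knockout. The lowest and highest fed arrays were thus of the same group, and no comparison of Cyp3a16 passed the test. The next were Cyp2c55 (0.69), Cyp3a44 (0.64), Cyp2c69 (0.59), Cyp2u1 (0.56) and Cyp2a5 (0.54), while Cyp2e1 and Cyp2j5 had 0.03.

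Cyp3a16, Cyp3a44 and Cyp2c69, all female-biased, put the arrays in the same order within 3 of the 4 groups. Cyp2c69 was 9.94 and 10.81 in the fed wild type, 10.60 and 9.92 in the fed knockout and 10.39, 11.02 and 9.71 in fasted knockout. In each of these groups the array with the highest and that with the lowest level were the same for the 3 genes. In fasted wild type Cyp2c69 was 10.70, 9.74 and 9.69, an order that the Cyp3a genes did not share. This order was noticed after the values were seen, the genes may share probe signal with relatives, and it has no test. Other female-biased members shared this order in part. In fed knockout, where the 3 genes were higher on replicate 1, replicate 2 was higher for Cyp2b13 (11.09 and 11.31), Cyp2b9 (12.58 and 12.71), Cyp2a4 (11.22 and 11.30) and Cyp2c40 (9.89 and 10.04). In fed wild type Cyp2b13, Cyp2a4 and Cyp2c40 were higher on replicate 2, like the 3 genes, and Cyp2b9 was not (12.51 and 12.45). In fasted knockout Cyp2b13, Cyp2b9 and Cyp2a4 had the highest and lowest arrays of the 3 genes. Cyp2c40 shared only the highest there.

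**Figure D5:**
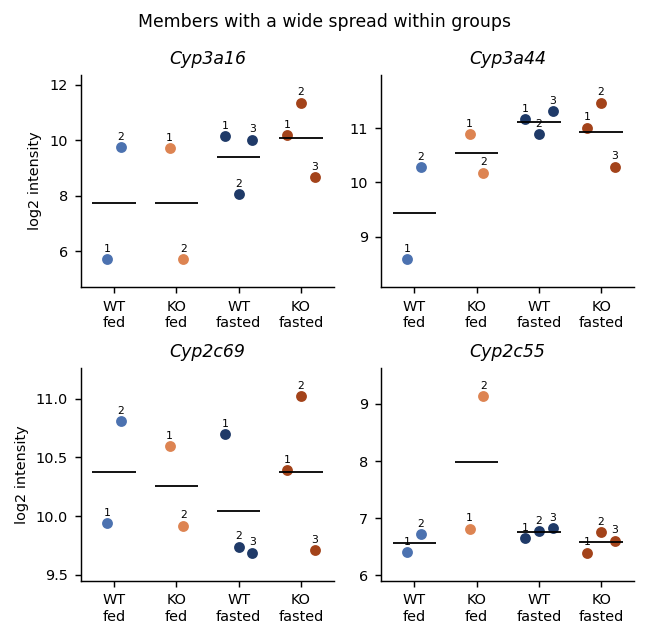
Log2 intensity of Cyp3a16, Cyp3a44, Cyp2c69 and Cyp2c55 on each of the 10 arrays, by group; numbers are replicates and lines group means. In fed mice Cyp3a16 spans 5.73 to 9.77 within wild type, and Cyp2c55 lies between 6.40 and 6.83 except for fed knockout replicate 2 at 9.13.

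Of 19 measured receptors and partners that control P450 genes, 5 rose, 4 fell and 10 passed no test with fasting in wild type (47.4% changed, against 21.4% of all genes). Among the 5 is Ahrr, a dim gene that is given below with the AhR battery. Nr1i2, encoding PXR, was 10.11 and 10.13 in fed and 11.10, 10.98 and 10.99 in fasted wild type (rise of 0.90 on the log2 scale, SE 0.10, limma adjusted p = 0.00069), with an interaction of -0.81 (adjusted p = 0.0333). In knockout it was 10.64 and 10.61 fed and 10.64, 10.84 and 10.67 fasted. Cebpb, which encodes the factor C/EBP beta, rose by 1.91 in wild type (adjusted p = 0.000587), with an interaction of -1.45 (adjusted p = 0.0426). Ahr fell by 0.83 (adjusted p = 0.00579) and was higher by 0.70 in fasted knockout than in fasted wild type (adjusted p = 0.0167). The latter difference ran from 0.68 to 0.82 over 10 alternatives. Its call was lost without fasted knockout replicates 1 and 2, which leaves 1 array in that group. Egfr, whose signalling restrains CAR, fell by 1.03 (adjusted p = 0.0182). Cebpa, which encodes C/EBP alpha, fell by 0.53 (adjusted p = 0.019), opposite to Cebpb, and Ppp2ca, a catalytic subunit of the phosphatase PP2A that lets CAR enter the nucleus, rose by 0.41 (adjusted p = 0.0217). The interaction calls were lost in 8 of 10 omissions of an array for Nr1i2, all but fasted knockout replicates 2 and 3, and in all 10 for Cebpb (adjusted p up to 0.114 and 0.11). Both were also lost with no filter, with the replicate block and without fasted knockout replicates 1 and 2. Other calls lost were those of Cebpa and Ppp2ca without either fed wild type array or fasted wild type replicate 2 or 3 (up to 0.102 and 0.135), Egfr without either fed wild type array (up to 0.097), and Ahr between the fasted genotypes without fasted wild type replicates 1 or 3, and without replicate 1 of fasted knockout (up to 0.0595).

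Nr1i3, encoding CAR itself, passed no test. It was 10.35 and 10.29 in the fed wild type, 10.95 and 10.59 in the fed knockout, 10.82, 10.62 and 10.68 in fasted wild type, as opposed to 11.11, 11.06 and 10.86 in fasted knockout. Both fed wild type arrays lay below all others. Its differences were 0.39 with fasting in wild type (95% interval 0.08 to 0.69, adjusted p = 0.0697) and 0.45 between the fed genotypes (0.12 to 0.78, adjusted p = 0.391). With fasting in knockout and between the fed genotypes, where 1.68% and 0.0861% of all genes changed, none of the 19 receptors and partners passed the test, and between the fasted genotypes Ahr did (5.26%, against 11.1%).

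Of 16 measured CAR and PXR target genes outside families 1 to 3, 3 rose and 1 fell with fasting in wild type (25%, against 21.4% of all genes). Gadd45b, a growth arrest gene that CAR and many stress signals induce, was 5.44 and 6.14 in fed and 10.58, 10.62 and 10.33 in fasted wild type (rise of 4.72, SE 0.42, limma adjusted p = 0.000313). In knockout it was 6.31 and 6.28 fed and 7.75, 9.18 and 9.42 fasted (rise of 2.49, adjusted p = 0.0323), and lower than in wild type after fasting by 1.73 (adjusted p = 0.0214). The sulfotransferase Sult1d1 rose by 0.75 (adjusted p = 0.00184), the exporter Abcc3 by 0.69 (adjusted p = 0.00434), and the glutathione transferase Gstm3 fell by 0.94 (adjusted p = 0.031; a fall of 0.59, adjusted p = 0.247, without fed wild type replicate 1). Abcc3 was 10.02 and 9.73 in fed wild type and between 10.47 and 10.68 on all other arrays. Of the 4 measured genes of the AhR battery, Ahrr alone changed with fasting in wild type (25%, against 21.4% of all genes). It rose at least 1.16-fold (limma adjusted p = 0.043) and is also counted above among the receptors and partners. Nqo1, a quinone reductase that AhR and NRF2 both induce, was higher in fasted knockout by 1.01 (adjusted p = 0.0165; up to 0.0674 without fasted wild type replicate 2 or fasted knockout replicate 1). With replicate 3 as the sole fasted knockout array that difference was 0.54 (adjusted p = 0.225), and the difference of Gadd45b between the fasted genotypes was -1.09 (adjusted p = 0.108). The calls of Gstm3 and Ahrr were lost in 4 and 6 of 10 omissions (up to 0.247 and 0.265), fed wild type replicate 1 and fasted wild type replicates 1 and 3 among them. The Gadd45b call between the fasted genotypes was lost without any fasted wild type array (up to 0.0644), and that in knockout in 6 of 10 omissions (up to 0.194).

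Genes of haem synthesis and breakdown and some redox partners of P450 enzymes were measured too. Of 13 haem genes, 2 rose and 4 fell with fasting in wild type (46.2%, against 21.4% of all genes). Alas1, the rate-limiting enzyme of haem synthesis, was 10.33 and 10.78 in fed and 11.71, 11.83 and 11.70 in fasted wild type (rise of 1.19, SE 0.18, limma adjusted p = 0.00225); in knockout it was 11.54 and 11.00 fed and 11.81, 11.91 and 11.65 fasted and did not pass the test. Cpox rose by 0.79 (adjusted p = 0.00939), while Ppox, the enzyme after it, fell by 1.15 (adjusted p = 0.00245), and Alad, Uros and Blvra fell by 0.55, 0.54 and 0.69. Between the fasted genotypes Ppox and Uros were higher in knockout, by 0.60 and 0.48 (adjusted p = 0.0407 and 0.0266), lost in 8 and 4 of 10 omissions (up to 0.145 and 0.0899). Both calls were also lost without fasted knockout replicates 1 and 2, which leaves 1 array in that group. Over 10 alternatives these differences ran from 0.60 to 0.68 and from 0.37 to 0.50. With fasting, the omission of fed wild type replicate 1 ended the calls of Cpox and Uros (0.0755 and 0.104 after adjustment), and that of either fed wild type array the call of Alad (up to 0.0764). The Blvra call was lost in 5 of 10 omissions (up to 0.207), those of both fed wild type arrays, fasted wild type replicates 2 and 3 and fasted knockout replicate 2. Of 8 measured redox partners, 1 (12.5%, against 21.4% of all genes) changed with fasting in wild type: Cyb5b, the mitochondrial cytochrome b5, fell by 0.84 in wild type (limma adjusted p = 0.00185). None passed the test in the other comparisons. The reductase that passes electrons to P450 enzymes was not among the 8, so these values do not describe it.

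Of 12 measured regulators of sex bias and growth hormone signalling, 2 fell with fasting in wild type and none rose (16.7%, against 21.4% of all genes). Bcl6, a repressor that is higher in male liver, was 8.99 and 9.28 in the fed wild type, 8.73 and 8.25 in the fed knockout, 8.03, 8.32 and 8.12 in fasted wild type, as opposed to 6.84, 6.90 and 6.94 in fasted knockout. It fell by 0.98 with fasting in wild type and by 1.60 in knockout (limma adjusted p = 0.00324 and 0.00797), and was lower by 1.27 in fasted knockout than in fasted wild type (adjusted p = 0.00433). All 3 fasted knockout arrays lay below every other array. Over 10 alternatives the difference of Bcl6 between the fasted genotypes ran from -1.27 to -1.21. The call was lost in 1 of them, without fasted knockout replicates 1 and 2, which leaves 1 array in that group. The growth hormone receptor Ghr fell by 0.59 in wild type (adjusted p = 0.0047), and Onecut1, a liver factor that growth hormone induces, rose by 1.49 in knockout (adjusted p = 0.0278). The Onecut1 call was lost without either fed knockout array or fasted knockout replicate 2 or 3 (up to 0.0753). None of the 7 measured female-biased P450 members passed the test in knockout or between the genotypes.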

How the data were processed

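The table deposited by the authors holds linear, already normalized intensities, 1 for each probe set in each sample. The submitters' processing notes name RMA and Affymetrix Expression Console. Software versions and the build used for annotation were not given in the sources used here. Since 228 to 489 intensities of an array fall below 0.1, which is unusual for RMA, how probes were summarised is not settled. Log2 was taken without further normalization. Of 41345 probe sets, 23521 have 1 gene symbol in the platform table, 1814 several and 16010 none. A gene was kept where a single-symbol probe set exceeded the median (50th percentile) of 2 or more arrays, and its brightest such probe set was used. Paralogues may share probes, so a value can hold signal of relatives, and levels of different probe sets were not compared. Where a group lay wholly at or below the array medians, the fold was taken against those medians and is a lower bound.

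The means of the 4 groups were estimated from all arrays together in limma 3.58.1 (R 4.3.3; prior degrees of freedom 3.63, residual 6), with Benjamini-Hochberg adjustment over 13942 genes and a threshold of 0.05. The code was tested on simulated data. Whether samples are separate animals is not given, so p-values measure only how these samples vary, which may be technical; 2 or 3 arrays per group limit the precision. The members and lists were chosen with earlier results of these data known, and no list was tested as a set. The naming rule took every member, with values on each array for those called, list genes called (up to 6 per list by p), Pml, Arntl and Dbp; Nr1i3, the wide-spread members and the uncalled members with values were picked after their values were seen. Promoter windows came from a RefSeq table (GRCm38.p6) that held 50 of the 58 members, 39 of those kept. Alternatives were centring by array medians, repeated quantile normalization, no filter, a 70th percentile filter, the mean of all probe sets, trend and robust moderation, weights per array, a block for the replicate number, the compared groups alone, fasted knockout without replicates 1 and 2, and omission of each array.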

Additional observations from a re-analysis of the deposited data

Results flagged for a closer look

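The response to fasting differed between the genotypes for 3 P450 genes and 2 of their regulators, by the interaction term of limma (fasting difference in knockout minus that in wild type, on the log2 scale). Cyp2b10 had a term of -1.28 (adjusted p = 0.0188), with a rise of 2.55 in wild type and 1.27 in knockout, seen in every fasted array of either genotype. Cyp2g1 had 3.31 (adjusted p = 0.0264), with -2.99 in wild type and 0.32 in knockout. Cyp2r1 had 1.99 (adjusted p = 0.0221), with -2.67 and -0.69. Nr1i2 had -0.81 (adjusted p = 0.0333) and Cebpb -1.45 (adjusted p = 0.0426). These calls depended on single arrays. They were lost in 10 of 10 omissions of an array for Cebpb, 8 for Nr1i2 and 6 for Cyp2g1. For Cyp2b10 and Cyp2r1 they were lost in 2 each. With no filter each of these calls was lost. Each was also lost without fasted knockout replicates 1 and 2, a fit that leaves 1 array in that group. With the replicate block those of Nr1i2 and Cebpb were lost too. Over 9 alternatives the terms of Nr1i2 and Cebpb ran from -0.86 to -0.77 and from -1.58 to -1.41.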

How the results depend on the processing

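No called gene changed direction under the alternatives and omissions run: 1073 values of such genes kept the call and 340 lost it. Genes that passed no test were not followed. Fasting in wild type called 13 members, and 8 with the replicate block. Fasting in knockout called 2, and 1 with no filter or with the groups of the comparison alone, 0 with the replicate block (10 at an unadjusted p under 0.05 in limma) and 3 without fasted knockout replicates 1 and 2. It called 3 under the stricter filter or trend and robust moderation, where the interaction had 4 and the fasted genotypes 11. The fed genotypes called 1, and in limma 0 with no filter (8 at an unadjusted p under 0.05), with the groups alone (7), with the replicate block (7) and without fasted knockout replicates 1 and 2 (6). The fasted genotypes called 9, and 4 with no filter or the groups alone, and 0 without those arrays (9). The interaction called 3, and 0 with no filter (10) and without those arrays (11); it has no fit of 1 comparison alone. Omitting single arrays gave 4 to 13 members for fasting in wild type, 0 to 2 in knockout, 0 to 1 for the fed and 2 to 8 for the fasted genotypes, and 0 to 3 for the interaction; their medians ran from -0.13 to -0.05, -0.03 to 0, 0.05 to 0.10, 0.07 to 0.17 and 0.02 to 0.10. An arm left with 1 array is assumed to vary like the other groups. Same-numbered arrays of the groups compared correlated between -0.17 and 0.09 in their deviations from group means. In a group of 2 arrays these deviations mirror each other, so such values cannot decide whether same-numbered arrays were paired. With the fed numbers crossed, chosen after seeing the data, the replicate block called 0 members (8 at an unadjusted p under 0.05 in limma).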

Other observations

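Values of probe sets that stand for several members are given here without a test. A probe set shared by Cyp2c67 and Cyp2c68 had a mean log2 intensity of 12.03 ± 0.11 (SD, n = 2) in fed wild type, 11.74 ± 0.26 (n = 2) in fed knockout, 11.52 ± 0.15 (n = 3) in fasted wild type and 11.50 ± 0.03 (n = 3) in fasted knockout. Both fed wild type arrays (12.10 and 11.95) lay above all fasted arrays, the same direction as the single-symbol probe set of Cyp2c68 in wild type.

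A probe set shared by Cyp3a41a, Cyp3a41b, Cyp3a11 and Cyp3a44 was 11.78 and 11.91 in the fed wild type, 11.93 and 11.65 in the fed knockout, 12.14, 11.86 and 12.04 in fasted wild type, as opposed to 12.14, 12.31 and 11.66 in fasted knockout. Within each group its highest and lowest arrays in fed wild type, fed knockout and fasted knockout were those of Cyp3a16 and Cyp3a44. The female-biased Cyp3a41 genes can be read only through such shared probe sets here.

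The second probe set of Cyp2c55 did not follow the brighter one. It was 6.54 and 6.83 in fed knockout, where the brighter one was 6.82 and 9.13, and 7.35, 7.57 and 5.90 in fasted knockout, where the brighter one was 6.40, 6.76 and 6.61. The second probe sets of Cyp2c29 and Cyp2f2 had group means of 5.30 to 5.78 and 8.58 to 8.70.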
